A study of Mus musculus with 8 samples.

Results

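The genes described here encode the plasma proteins of complement and of blood clotting, most of them released by the liver: the complement components and their regulators, the clotting factors, fibrinogen, the anticoagulants and the fibrinolytic proteins. They were taken from a list of 43 gene symbols, matched through Ensembl identifiers to the rows of the deposited expression table. Of the 43 genes, 42 were found among the 25690 genes of the table, and Klkb1 (plasma prekallikrein) was not analysed here. All 42 passed the filter of a mean of at least 1 FPKM (fragment counts corrected for the length of the transcript and the depth of the library) over the libraries, which 10250 genes passed in all.

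RNA-seq was made from mouse liver in 2 groups, with 4 libraries each: wildtype control, and a hepatic knockout of Foxo1. FOXO1, a transcription factor of the forkhead class, leaves the nucleus under insulin. The libraries are called by the numbers in their titles, wildtype 1, 3, 10 and 12 and knockout 3, 9, 10 and 11, and values are given in that order throughout. The labels give tissue and genotype, and the allele, the driver of the deletion, the strain, age, sex, diet and fasting state are not among them. Nor do the labels say whether each library is 1 animal, and a p-value here is set against the spread of the libraries, which may be technical.

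Complement is a cascade of plasma proteases and opsonins. The classical and lectin pathways, started by C1q or by mannose-binding lectins, cleave C4 and C2, the alternative pathway uses factor B, and all of them meet at C3, after which C5 to C9 form a pore in the target membrane. Clotting is a second cascade, in which vitamin K-dependent proteases end in thrombin, which turns fibrinogen into fibrin. Hepatocytes make nearly all of these proteins, C1q being a product of macrophages, and many of them, fibrinogen and C3 above all, are acute phase proteins whose transcripts rise under interleukin-6.

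Depth was estimated at 26.9 M fragments in wildtype 3 to 35.2 M in knockout 11. The targeted gene, Foxo1, stood at 3.21, 3.01, 3.38 and 3.81 FPKM in wildtype, and at 0.224, 0.267, 0.375 and 0.212 FPKM in knockout. It fell by 1.78 ± 0.09 (SE) on the log2(FPKM + 1) scale (limma, adjusted p = 3.62e-05), and the groups did not overlap. That scale understates the fall at such low FPKM, and the mean FPKM was 12.5 times as high in wildtype as in knockout. Knockouts 3 and 11 stood apart from the other 6 libraries in a list of 19 acute phase genes, led by the serum amyloid A genes. The FPKM of that list summed to between 7937 and 8691 in the wildtype libraries and to 98980, 9428, 7480 and 104000 in the knockout libraries, and neutrophil and lymphocyte markers, of which 4 of 10 were tested and 0 passed in limma (2 at an unadjusted p under 0.05), summed to 2.31 to 6.10 FPKM against 61.8, 3.94, 7.75 and 148.0 FPKM. The neutrophil markers S100a8 and S100a9 made up most of these sums in knockout 3 (31.4 and 24.3 FPKM) and knockout 11 (77.25 and 57.5 FPKM). The lymphocyte markers Cd3e, Cd8a, Cd79a, Ms4a1 and Nkg7 were at 0.393 FPKM or less in every library, and Cd4 was highest in knockout 10 (1.71 FPKM). Among the neutrophil and lymphocyte markers 5 are listed at 0 in at least 1 library, and their part in the results was not tested. Changes without knockouts 3 and 11 are given beside the members that passed and several others, and for every member in the plot of changes. Of 10 hepatocyte markers 1 passed (Hnf4a, higher), and 3 had an unadjusted p under 0.05 (limma). Asgr1 (-0.42, adjusted p = 0.0515) and Ttr (-0.52, adjusted p = 0.1075) were among these 3 and fell. The median log2 change of the 10 was -0.06, and -0.24 without knockouts 3 and 11. Alb, the albumin gene, is listed at 0 in knockout 10 and was high elsewhere. Of 7 sinusoidal endothelial markers 6 were tested, with a median log2 change of -0.36; 1 passed, Fcgr2b (-0.59 ± 0.12, adjusted p = 0.0130), and 4 had an unadjusted p under 0.05. Their FPKM summed to 34.9 to 41.1 in wildtype and to 26.0, 24.9, 38.3 and 26.2 in knockout, and none of them was at 0. Of the stellate cell, cholangiocyte, platelet and red blood cell precursor markers tested (3, 1, 2 and 4), 0 passed in limma, with 1 of each list at an unadjusted p under 0.05.

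In the knockout liver, 8 of the 42 genes were higher and 2 were lower at an adjusted p under 0.05. The genes that rose were Fga, C3, C8b, C4b, C4bp, Vtn, Masp1 and C1ra, by 0.43 to 0.97 on the log2(FPKM + 1) scale. Mbl2 and C8g fell. Their longest transcripts have 1089 and 1150 bases, against a median of 2317 over the members and 3064 over the tested genes. Both calls were lost with the trend along transcript length removed and with quantile normalization. The sinusoidal endothelial markers were also lower at the median, and their part in these 2 calls was not tested. The other 32 did not pass, and 17 of the 42 had an unadjusted p under 0.05, against 30.5% of all genes tested. Over all genes tested, 14.4% passed in either direction, 2.70% as higher and 11.7% as lower, so that 19.0% of the members against 2.70% rose, and 4.76% against 11.7% fell. This scale understates the change of genes of low FPKM, but few of these genes are low: their median level in wildtype was 242.4 FPKM, against 6.87 FPKM over the tested genes, and 27 of the 42 were among the 500 highest.

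The median log2 change of the 42 genes was 0.28, and that of all tested genes was -0.08. A log2 change above 0 was found for 30 of the members and for 37.7% of the tested genes. In 13 members every knockout library was above every wildtype library, and in 2 every knockout library was below, where the shares over the tested genes were 4.83% and 16.5%. With knockouts 3 and 11 left out, 6 members were higher (Vtn, C6, C3, C4bp, Fga and C8b) and 3 lower (C8g, Mbl2 and F7), against 1.88% and 6.35% of the genes tested. The median change of the members was then 0.13 and that of the tested genes -0.01. On leaving out 1 wildtype library, the number of higher members was 2 without wildtype 1 and 4 without wildtype 3, 10 or 12, where 1.02%, 1.58%, 1.47% and 1.92% of the tested genes were higher. On leaving out 1 knockout library, it was 6 without knockout 3, 13 without knockout 9, 11 without knockout 10 and 4 without knockout 11, against 1.54%, 3.54%, 2.69% and 2.38%. The split of calls depended on the scaling between libraries: quantile normalization gave 19 higher and 0 lower members (1 lower at an unadjusted p under 0.05, limma), where 4.59% and 6.36% of the tested genes passed, and removing the trend along transcript length gave 8 and 0 (2 lower at an unadjusted p under 0.05), against 5.08% and 5.76%. Median-ratio scaling gave 8 and 1, against 4.73% and 7.02%.

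The knockout libraries differed among themselves more than the wildtype libraries did. In 24 of the 42 genes knockouts 3 and 11 were the highest of the 8 libraries, as they were for 5.68% of the tested genes. Against the wildtype mean, the median member stood 0.48 higher on the log2(FPKM + 1) scale in knockout 3, 0.11 in knockout 9, 0.16 in knockout 10 and 0.31 in knockout 11, while the median tested gene stood at -0.15, 0.00, -0.04 and -0.16. The summed FPKM of the members ran from 17510 to 18530 in the wildtype libraries and came to 37070, 19830, 20990 and 27230 in the knockout libraries. The SD of the log2 values was larger in the knockout group for 35 members, a share of 83.3% against 69.3% of the tested genes. In bulk RNA such as this, fewer cells of a type and less RNA per cell cannot be told apart.

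**Figure D1:**
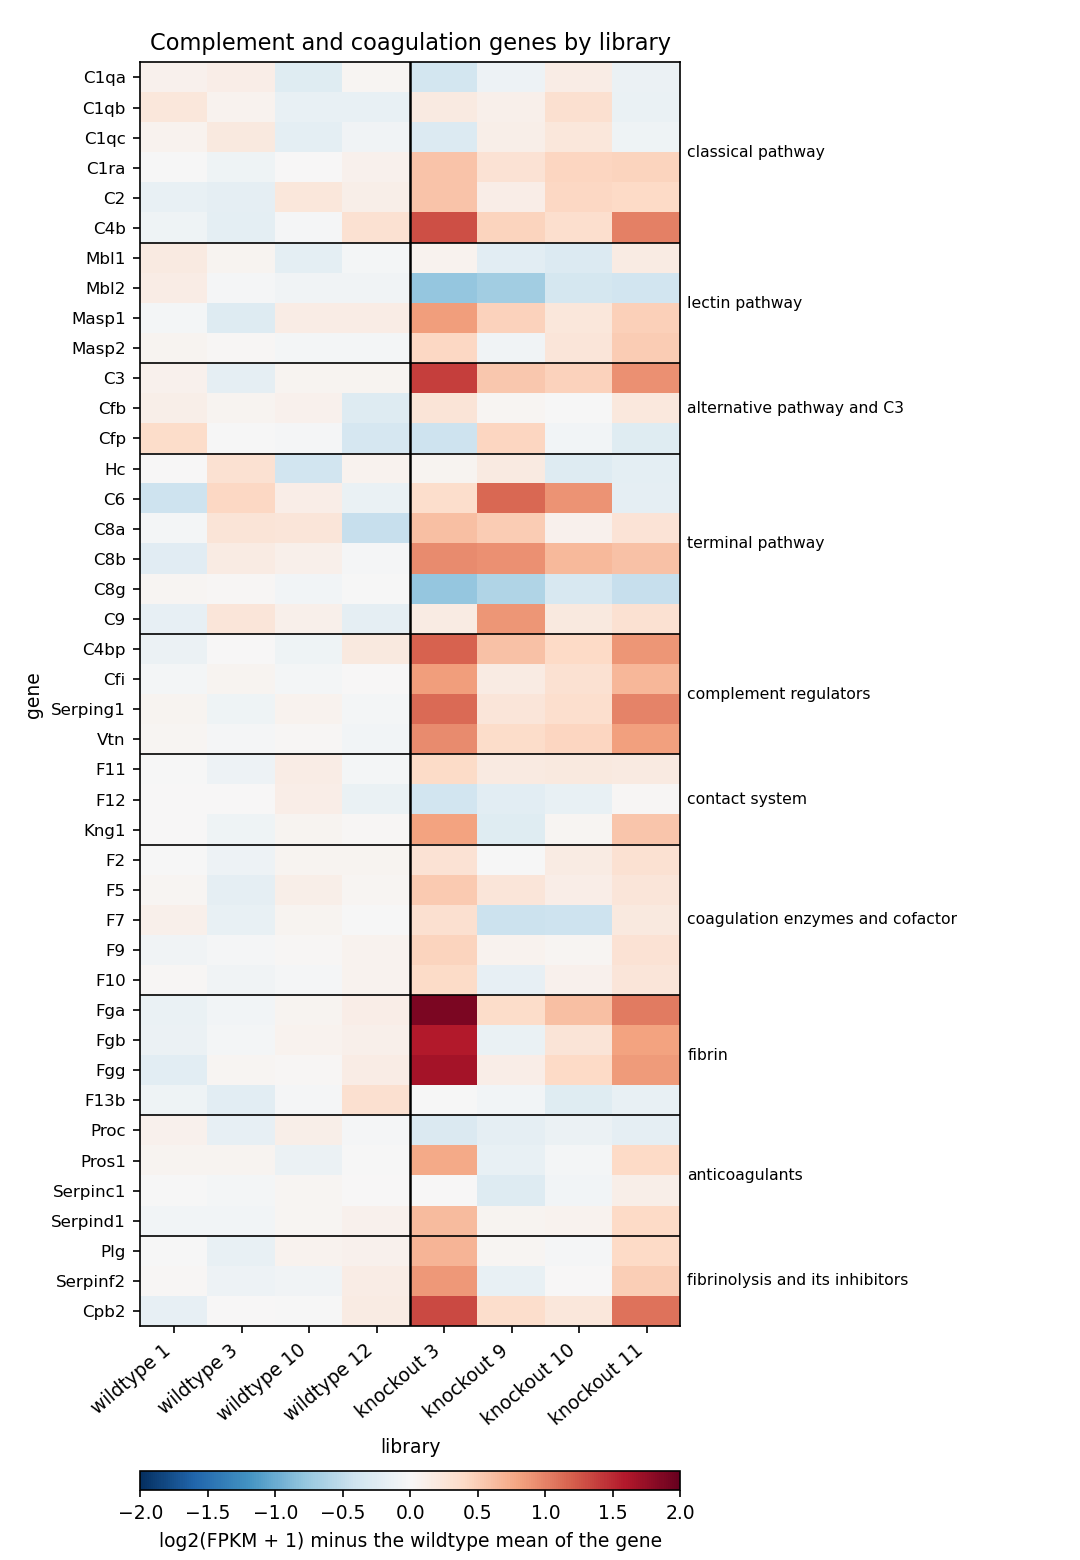
Heat map of the 42 genes (rows, grouped by role) in the 8 libraries (columns), coloured by log2(FPKM + 1) minus the mean of the gene over the wildtype libraries, from blue (lower) to red (higher). Knockouts 3 and 11 hold most of the red, darkest in Fga, Fgb, Fgg and C3 of knockout 3, while Mbl2 and C8g are blue in every knockout library.

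**Figure D2:**
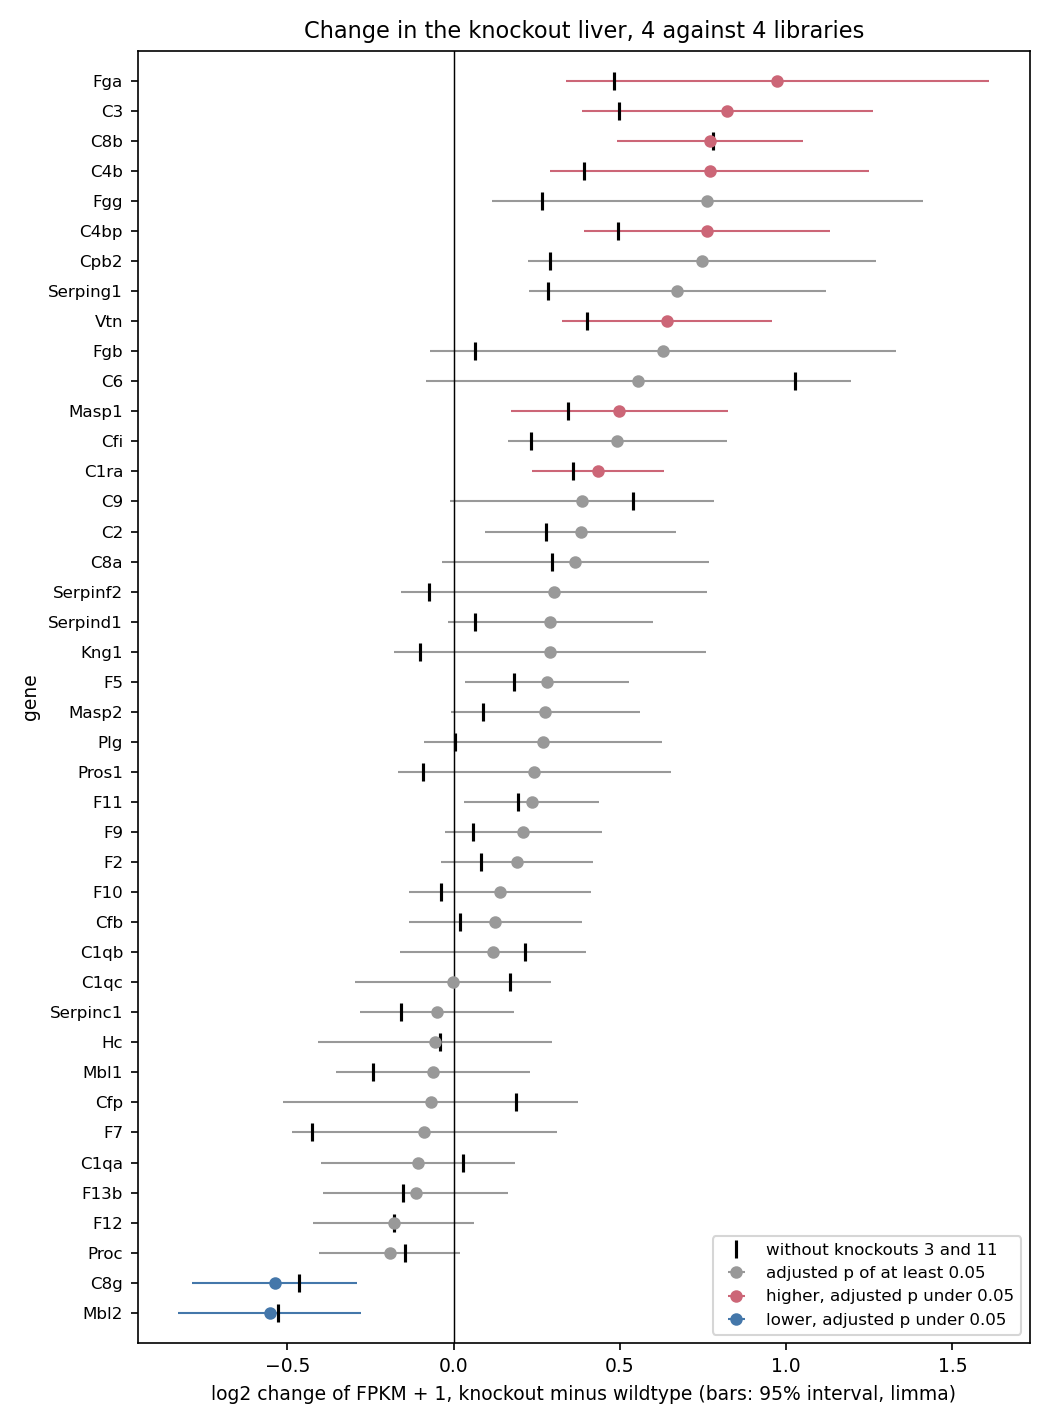
Log2 change of FPKM + 1, knockout minus wildtype, for the 42 genes in order of the change (points, with 95% intervals from limma, 4 against 4 libraries); black ticks give the change without knockouts 3 and 11. Red marks the 8 genes that passed as higher and blue the 2 that passed as lower, and for most genes on the right the tick lies left of the point, except for C6, C8b, C9 and C1qb.

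The classical pathway starts when C1q binds an antibody or a surface and activates the proteases C1r and C1s, which cleave C4 and C2. Of its 6 genes 2 rose, C1ra and C4b, and 4 did not pass. C1ra, a mouse gene of the protease C1r (chr6:124512405-124523443, build mm10), was measured at 63.3, 60.1, 63.8 and 67.5 FPKM in wildtype and at 95.1, 77.7, 86.4 and 86.7 FPKM in knockout. All 4 knockout libraries were above all wildtype libraries, and they lay close together. The rise was 0.43 ± 0.09 (SE; adjusted p = 0.0134, limma), from 63.7 ± 3.03 to 86.5 ± 7.11 FPKM (mean ± SD, n = 4 each). Without knockouts 3 and 11 the change was 0.36 (adjusted p = 0.0596).

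C4b, the mouse gene of C4 (chr17:34728380-34743882), stood at 122.0, 113.3, 127.9 and 161.2 FPKM in wildtype and 319.4, 176.8, 164.8 and 261.7 FPKM in knockout. Knockouts 9 and 10 were only just above wildtype 12, and knockouts 3 and 11 were well above. The change was 0.77 ± 0.21 (adjusted p = 0.0416), and it was 0.39 (adjusted p = 0.144) without knockouts 3 and 11. The call was also lost without wildtype 1 (0.105), wildtype 3 (0.1001), wildtype 10 (0.0943), knockout 3 (0.0846) or knockout 11 (0.0927), and with the length trend removed (0.0685), all as adjusted p. Reads of C4b and of its near-identical neighbour C4a, 65210 bases away, may be split between them by the authors' counting, so both values are uncertain.

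C2, the protease that C1s cleaves to make the C3 convertase, was at 31.9 ± 4.59 FPKM in wildtype and 41.8 ± 5.21 FPKM in knockout, with overlapping groups (0.38 ± 0.13, adjusted p = 0.0772). It passed at 5 of the 22 settings, among them quantile normalization and an adjusted p under 0.10. No source used here gives the strand setting of the counting, and C2 ends 86 bases from Cfb on the same strand. The 3 chains of C1q lie next to one another on chromosome 4 and none passed. C1qa, C1qb and C1qc had log2 changes of -0.11, 0.12 and -0.00, at 19.3 ± 2.28, 14.1 ± 1.92 and 12.3 ± 1.59 FPKM in wildtype and 17.9 ± 2.83, 15.4 ± 2.06 and 12.3 ± 1.98 FPKM in knockout. The 95% interval for C1qc ran from -0.30 to 0.29 (log2), the sign of C1qa and C1qc turned with the scaling, and the groups overlapped for each chain. Of 9 macrophage and Kupffer cell markers 7 were tested and 0 passed in limma (1 at an unadjusted p under 0.05). Their FPKM summed to 54.2 to 76.3 in wildtype and 70.1 to 75.0 in knockout, and none of them was at 0. This sum hides markers that moved in opposite directions. Mpeg1 was at 5.78, 3.84, 3.20 and 5.55 FPKM in wildtype and 29.1, 13.5, 4.72 and 16.8 FPKM in knockout (1.41 ± 0.43, adjusted p = 0.0558). Clec4f had a negative change (-0.28 ± 0.18, adjusted p = 0.332), and the median log2 change of the tested markers was 0.09.

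In the lectin pathway, mannose-binding lectins on a sugar surface carry the proteases MASP-1 and MASP-2, which do the work of C1r and C1s. Of the 4 genes Mbl2 fell, Masp1 rose, and Mbl1 and Masp2 did not pass. Mbl2 (chr19:30232942-30239687) read 505.8, 449.1, 435.7 and 436.5 FPKM in wildtype and 265.0, 280.2, 356.6 and 350.0 FPKM in knockout. Every knockout library was below every wildtype library, with knockouts 3 and 9 the lowest. The change was -0.55 ± 0.12 (adjusted p = 0.0175), and it was -0.53 (adjusted p = 0.0459) without knockouts 3 and 11. It stayed negative at every setting tried, but the call was lost without wildtype 1 (-0.50, adjusted p = 0.0622), with median-ratio scaling (-0.44, 0.0620), with quantile normalization (-0.24, 0.132) and with the length trend removed (-0.28, 0.105).

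Mbl1, the other mouse mannose-binding lectin, was at 269.5 ± 29.6 FPKM in wildtype and 259.2 ± 38.9 FPKM in knockout, with overlapping groups (-0.06 ± 0.13, adjusted p = 0.791). The 95% interval of its change ran from -0.35 to 0.23. Within a library, the ratio of Mbl2 to Mbl1 was 1.66, 1.62, 1.86 and 1.68 in wildtype and 0.939, 1.21, 1.61 and 1.16 in knockout. All 4 knockout ratios were below the wildtype ones, that of knockout 10 only just. The ratio was chosen after the values were seen and is a description. The longest transcript of Mbl2 has 1089 bases and that of Mbl1 1563, so the ratio keeps any trend along transcript length.

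Masp1 (chr16:23449417-23520815), which also encodes the splice form MASP-3, read 9.93, 8.37, 11.4 and 11.4 FPKM in wildtype and 19.0, 14.5, 12.04 and 14.5 FPKM in knockout. The groups did not overlap, but knockout 10 lay close to the upper wildtype libraries. The rise was 0.50 ± 0.15 (adjusted p = 0.0492), and 0.34 (adjusted p = 0.192) without knockouts 3 and 11. Its call was lost on leaving out any 1 library except knockout 10, with adjusted p between 0.0662 (without knockout 9) and 0.118 (without wildtype 1). Masp2 read 180.3 ± 6.05 FPKM in wildtype and 220.8 ± 37.2 FPKM in knockout, with knockout 9 below all wildtype libraries (0.28 ± 0.13, adjusted p = 0.175). The change of Masp2 was 0.09 (adjusted p = 0.645) without knockouts 3 and 11, and it passed, at 0.39 (adjusted p = 0.0311), without knockout 9.

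C3, the protein at which all pathways meet (chr17:57203970-57228136), was the most abundant complement transcript, ranked 58 of all tested genes by mean FPKM. It was measured at 1357, 1131, 1328 and 1334 FPKM in wildtype and at 3344, 1861, 1764 and 2430 FPKM in knockout. All knockout libraries were above all wildtype libraries, knockout 3 highest. C3 rose by 0.82 ± 0.20 (adjusted p = 0.0234), from 1288 ± 105.3 to 2350 ± 724.9 FPKM. Without knockouts 3 and 11 it was higher by 0.50 (adjusted p = 0.0372), with 2 knockout libraries against 4. The adjusted p was 0.0582, 0.0638, 0.0551 and 0.0545 on leaving out wildtype 1, 3, 10 or 12, and 0.0522 without knockout 11.

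The 2 alternative pathway proteins did not pass. Cfb, factor B, which binds C3b to form the alternative convertase, was at 539.6 ± 60.8 FPKM in wildtype and 587.4 ± 51.7 FPKM in knockout (0.13 ± 0.12, adjusted p = 0.514). The groups overlapped, and wildtype 12 was the lowest library at 449.4 FPKM. Cfp, properdin, which stabilises that convertase and is made mostly outside hepatocytes, was the least abundant member, at 6.08 ± 1.40 FPKM in wildtype and 5.82 ± 1.83 FPKM in knockout (-0.07 ± 0.20, adjusted p = 0.850). Whether the change of C3 differed from theirs was not tested.

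The terminal pathway assembles C5 (gene Hc), C6, C7, C8 and C9 into the membrane attack complex. Of its 6 genes 1 rose and 1 fell, and both encode chains of the same protein, C8, in which the alpha and gamma chains are joined by a disulfide bond and the beta chain is bound to them without one. C8b (chr4:104766317-104804548), the beta chain, read 145.3, 190.8, 182.5 and 167.0 FPKM in wildtype and 328.7, 322.7, 266.7 and 255.9 FPKM in knockout. The lowest knockout library was well above the highest wildtype library, and here knockouts 3 and 9, not 3 and 11, were the highest. C8b rose by 0.77 ± 0.12 (adjusted p = 0.00609), and by 0.78 (adjusted p = 0.0224) without knockouts 3 and 11. It passed at 21 of the 22 settings, more than any other member.

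C8g (chr2:25498651-25501719), the gamma chain, a small lipocalin, went the other way. It was at 715.8, 710.0, 676.2 and 697.0 FPKM in wildtype and 409.0, 460.2, 558.3 and 510.5 FPKM in knockout. The wildtype libraries lay within a narrow range and each knockout library was below it, knockout 3 the lowest. The change was -0.54 ± 0.11 (adjusted p = 0.0135), and -0.46 (adjusted p = 0.0406) without knockouts 3 and 11. It kept its sign at every setting and its call on leaving out any 1 library, but not with quantile normalization (-0.21, adjusted p = 0.185) or with the length trend removed (-0.28, adjusted p = 0.0720).

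C8a, the alpha chain, lies 11131 bases from C8b on the opposite strand. It read 283.6, 351.9, 345.2 and 213.0 FPKM in wildtype and 442.6, 416.3, 310.7 and 354.9 FPKM in knockout, so that knockout 10 fell within the wildtype range (0.37 ± 0.18, adjusted p = 0.203). The ratio of C8g to C8b, computed within each library and chosen after the values were seen, was 4.93, 3.72, 3.70 and 4.17 in wildtype and 1.24, 1.43, 2.09 and 1.995 in knockout, without overlap. The mean ratio was 4.13 ± 0.573 in wildtype and 1.69 ± 0.418 in knockout. The ratio of C8a to C8b was 1.74 ± 0.314 in wildtype and 1.30 ± 0.0965 in knockout, and there the groups overlapped. The longest transcripts of C8a, C8b and C8g have 3617, 2239 and 1150 bases, so both ratios keep any trend along transcript length.

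The other terminal genes did not pass. C6 was at 73.1, 130.5, 108.2 and 89.7 FPKM in wildtype and 125.7, 219.7, 183.4 and 86.3 FPKM in knockout, with knockouts 9 and 10 above all wildtype libraries and knockouts 3 and 11 within their range. Its change was 0.56 ± 0.29 (adjusted p = 0.225) over all libraries and 1.03 (adjusted p = 0.0355) without knockouts 3 and 11, the only setting at which it passed. C9 read 880.9 ± 125.6 FPKM in wildtype and 1167 ± 299.8 FPKM in knockout, with knockout 9 the highest at 1613 FPKM (0.39 ± 0.18, adjusted p = 0.176). Hc was at 177.0 ± 33.2 FPKM in wildtype and 169.3 ± 24.7 FPKM in knockout (-0.06 ± 0.16, adjusted p = 0.848, 95% interval from -0.41 to 0.30).

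**Figure D3:**
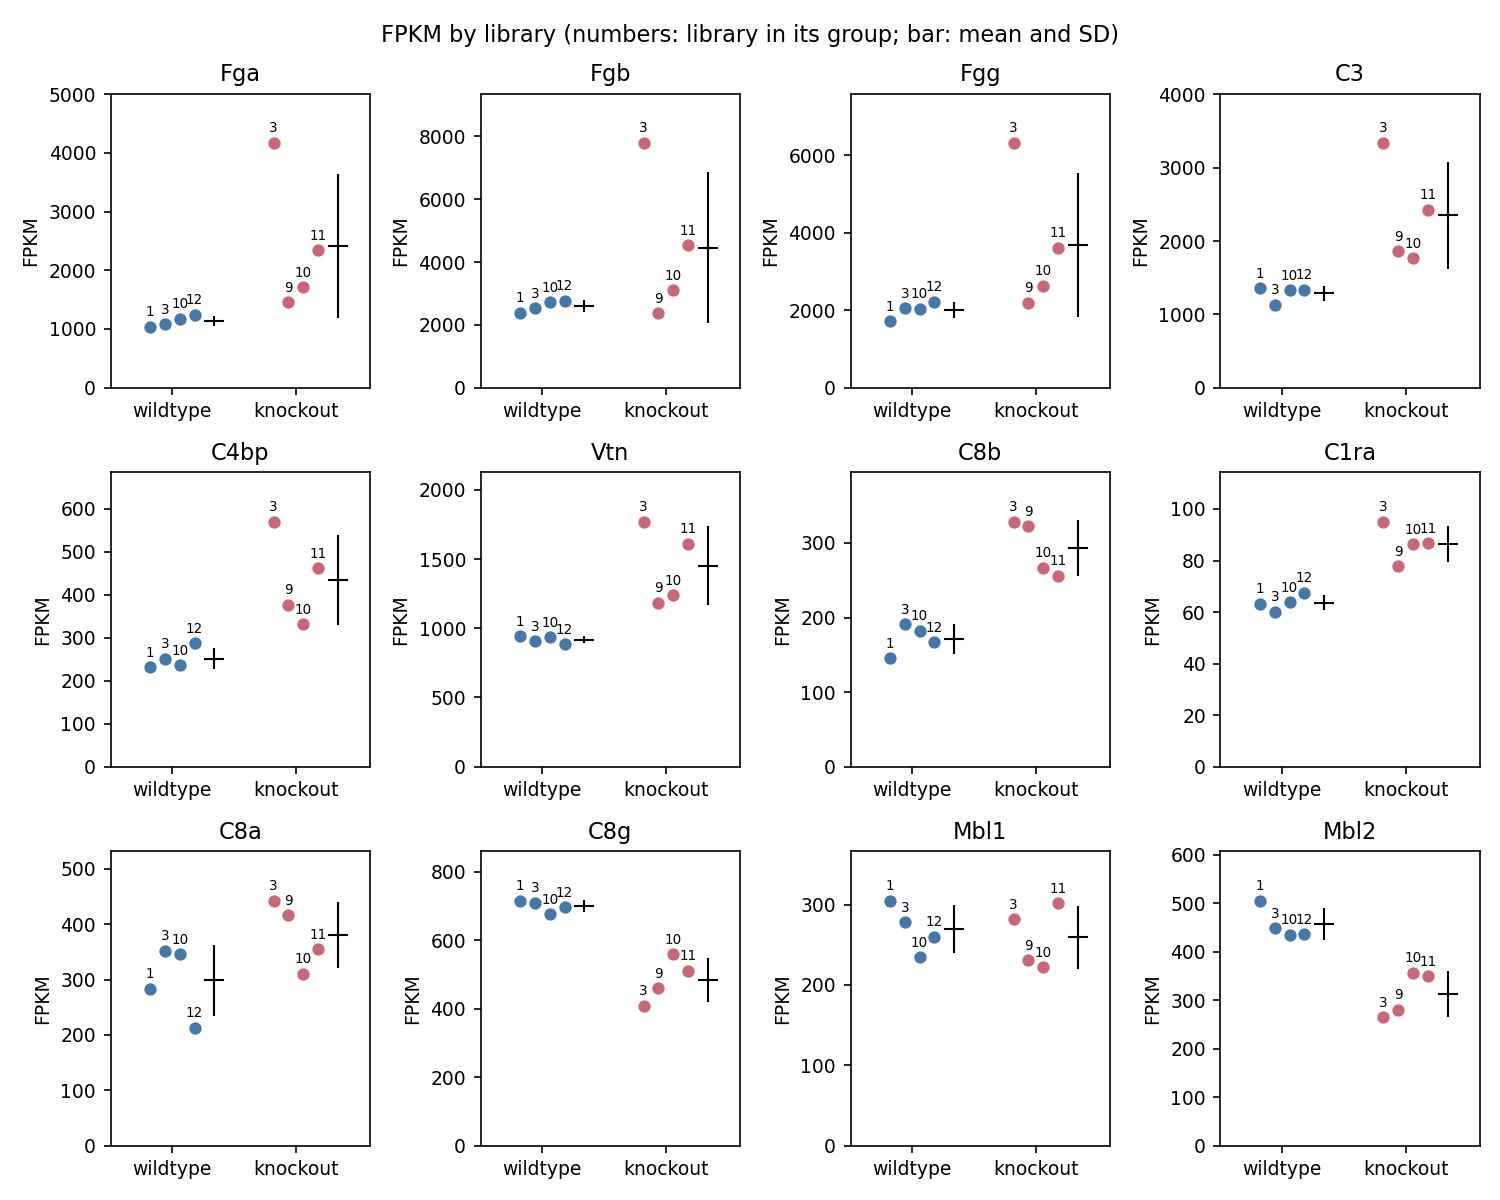
FPKM of 12 genes in each library (blue: wildtype 1, 3, 10 and 12; red: knockout 3, 9, 10 and 11; the number at each point is the library, and the bar beside each group is the mean with its SD); each axis starts at 0 and has its own range. Fga, Fgb, Fgg, C3, C4bp and Vtn are highest in knockouts 3 and 11, C8b is high in all 4 knockout libraries, and C8g and Mbl2 are lower in all 4, between 409.0 and 558.3 FPKM for C8g.

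The 4 regulators on the list act in plasma to limit complement. Each of the 4 was higher in every knockout library than in any wildtype library, as were 4.83% of all tested genes. C4bp and Vtn passed the test. In all 4, knockouts 3 and 11 were the highest libraries, a pattern found in 24 of the 42 members. C4bp, the C4b-binding protein, a cofactor for the cleavage of C4b (chr1:130634773-130661632), read 231.7, 251.5, 236.9 and 287.3 FPKM in wildtype and 570.8, 377.1, 332.2 and 462.1 FPKM in knockout. Knockouts 3 and 11 were the highest, and knockouts 9 and 10 were also clear of wildtype. It rose by 0.76 ± 0.16 (adjusted p = 0.0163), and by 0.49 (adjusted p = 0.0463) without knockouts 3 and 11. Without wildtype 1 the adjusted p was 0.0554.

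Vtn, vitronectin, which keeps the terminal complex out of membranes and also binds the plasminogen activator inhibitor (chr11:78499091-78502324), was at 943.4, 905.3, 935.1 and 886.5 FPKM in wildtype. In knockout it was at 1772, 1186, 1238 and 1613 FPKM, each above the wildtype libraries, which lay within a narrow range. It rose by 0.64 ± 0.14 (adjusted p = 0.0172), and by 0.40 (adjusted p = 0.0355) without knockouts 3 and 11. On leaving out wildtype 1 or wildtype 12 the adjusted p was 0.0507 or 0.0508.

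Serping1, the C1 inhibitor, which blocks C1r, C1s, the MASPs and plasma kallikrein, read 391.9, 353.0, 395.3 and 364.5 FPKM in wildtype and 823.0, 442.6, 473.7 and 747.9 FPKM in knockout. Knockouts 9 and 10 were somewhat above wildtype and knockouts 3 and 11 far above. The change was 0.67 ± 0.20 (adjusted p = 0.0515), and 0.28 (adjusted p = 0.108) without knockouts 3 and 11. Cfi, factor I, the protease that cleaves C3b and C4b, stood at 256.4, 273.4, 256.9 and 264.2 FPKM in wildtype and 471.1, 294.3, 323.8 and 416.6 FPKM in knockout. Its change was 0.49 ± 0.15 (adjusted p = 0.0529), and 0.23 (adjusted p = 0.152) without the same 2 libraries. Both genes lay just outside the threshold and passed at 9 and 7 of the 22 settings.

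In the contact system, factor XII, prekallikrein, factor XI and kininogen start clotting on a charged surface and release bradykinin. Of the 3 genes measured 0 passed in limma (1 at an unadjusted p under 0.05). F11 (chr8:45241174-45262031) was at 56.5, 52.5, 62.9 and 55.2 FPKM in wildtype and 73.8, 64.5, 65.2 and 64.3 FPKM in knockout. The groups did not overlap, but wildtype 10 came close to knockouts 9, 10 and 11. The change was 0.23 ± 0.09 (adjusted p = 0.116), and F11 passed with quantile normalization and with the length trend removed. F12 read 250.1 ± 18.2 FPKM in wildtype and 221.2 ± 25.9 FPKM in knockout (-0.18 ± 0.11, adjusted p = 0.300). Kng1, which encodes the kininogens, read 1149, 1081, 1196 and 1160 FPKM in wildtype and 2005, 969.5, 1174 and 1685 FPKM in knockout, so that knockouts 3 and 11 were high and knockout 9 was below all wildtype libraries. Its change was 0.29 ± 0.21 (adjusted p = 0.393), and it had the opposite sign, -0.10 (adjusted p = 0.589), without knockouts 3 and 11. Kng1 and its neighbour Kng2 are similar copies, which makes the share of reads of each uncertain.

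F11 was 1 of 2 listed genes, with Klkb1, whose promoter holds the letters of a forkhead (FoxO) core, GTAAACA on either strand, in the 250 bases before the RefSeq start. Such letters were found in 3.17% of the 32851 RefSeq promoters searched, and 33 of the 43 listed genes had a promoter entry. The share is of promoters, while a listed gene counts once if any of its promoters matches, so the 2 are not like measures. The sequence is shown because FOXO1 is the deleted factor; a match of letters is a description and not a site. The F11 window lies at chr8:45262032-45262281 on the minus strand (RefSeq, build GRCm38.p6), 5′ to 3′, with the match in capitals, 25 to 19 bases before the start. The window of C8b, the member that passed at the most settings, at chr4:104766067-104766316 on the plus strand, holds none of the 3 motifs searched and is shown beside it. GTAAACA was the only forkhead spelling searched, so other spellings may be present in either window.
F11: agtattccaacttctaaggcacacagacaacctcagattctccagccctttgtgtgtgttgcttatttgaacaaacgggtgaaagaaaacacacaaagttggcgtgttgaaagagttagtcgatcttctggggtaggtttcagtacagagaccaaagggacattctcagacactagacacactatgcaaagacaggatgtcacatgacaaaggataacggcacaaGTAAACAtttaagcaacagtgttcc
C8b: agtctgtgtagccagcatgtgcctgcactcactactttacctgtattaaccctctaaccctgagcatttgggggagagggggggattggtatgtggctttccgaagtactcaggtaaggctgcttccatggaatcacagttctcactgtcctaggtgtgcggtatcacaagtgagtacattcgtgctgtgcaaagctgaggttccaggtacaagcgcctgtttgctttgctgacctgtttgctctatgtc

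Of the 5 genes of the coagulation enzymes and factor V, 0 passed in limma (1 at an unadjusted p under 0.05). F2, prothrombin, read 603.6 ± 31.5 FPKM in wildtype and 690.7 ± 67.3 FPKM in knockout (0.19 ± 0.10, adjusted p = 0.246, 95% interval from -0.04 to 0.42). F5, the cofactor of factor Xa, was at 54.3, 46.4, 57.2 and 54.4 FPKM in wildtype and 76.5, 62.5, 57.9 and 62.8 FPKM in knockout. The groups of F5 did not overlap, though knockout 10 and wildtype 10 were nearly equal (0.28 ± 0.11, adjusted p = 0.119). F9 was at 59.9 ± 2.71 FPKM in wildtype and 69.8 ± 9.31 FPKM in knockout (0.21 ± 0.11, adjusted p = 0.216), with overlap.

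F7, the protease that starts clotting with tissue factor, and F10, factor X, lie 1499 bases apart on chromosome 8. F7 stood at 46.5, 39.1, 45.4 and 43.5 FPKM in wildtype and 54.3, 31.9, 32.3 and 49.7 FPKM in knockout. Knockouts 3 and 11 were the highest of all libraries and knockouts 9 and 10 the lowest. Its change was near 0 over all libraries (-0.09 ± 0.18, adjusted p = 0.779) and -0.43 (adjusted p = 0.0455) without knockouts 3 and 11, where it passed. F10 was at 234.7 ± 9.70 FPKM in wildtype and 261.2 ± 41.8 FPKM in knockout (0.14 ± 0.12, adjusted p = 0.487), and at -0.04 without those libraries.

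Fibrinogen is built from the alpha, beta and gamma chains, whose genes form a cluster on chromosome 3 with Fga 6514 bases from Fgb and 11027 bases from Fgg. Fgb and Fgg were the 2 most abundant transcripts of the members, ranked 35 and 45 of the tested genes by mean FPKM, and Fga, at 60, came just after C3. Fga (chr3:83026076-83033627) read 1036, 1084, 1176 and 1241 FPKM in wildtype and 4177, 1459, 1713 and 2338 FPKM in knockout. The groups did not overlap, and knockout 3 was far above the rest. Fga rose by 0.97 ± 0.28 (adjusted p = 0.0492), from 1134 ± 91.9 to 2422 ± 1227 FPKM, and by 0.48 (adjusted p = 0.0481) without knockouts 3 and 11.

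The call of Fga stood at the threshold. Its adjusted p was 0.118, 0.104, 0.0994 and 0.0891 without wildtype 1, 3, 10 or 12 and 0.0952 without knockout 11, and it was 0.0589 with median-ratio scaling and 0.0598 with the length trend removed. With no filter on low values it was 0.116. Fga passed at 11 of the 22 settings.

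Fgb (chr3:83040141-83049863) was measured at 2390, 2524, 2729 and 2776 FPKM in wildtype and 7808, 2380, 3105 and 4535 FPKM in knockout. Fgg (chr3:83007724-83015049) was measured at 1718, 2049, 2040 and 2217 FPKM in wildtype and 6331, 2189, 2636 and 3617 FPKM in knockout. For both, knockout 3 was highest and knockout 11 next, and knockout 9 lay within or below the wildtype range. Their changes were 0.63 ± 0.31 (adjusted p = 0.211) and 0.76 ± 0.29 (adjusted p = 0.110), and 0.06 (adjusted p = 0.797) and 0.27 (adjusted p = 0.256) without knockouts 3 and 11. The ratio of Fga to Fgb within a library was 0.433, 0.430, 0.431 and 0.447 in wildtype and 0.535, 0.613, 0.552 and 0.516 in knockout. All 4 knockout ratios were above all wildtype ones, including those of knockouts 9 and 10. The ratio of Fgg to Fgb, at 0.769 ± 0.0436 in wildtype and 0.844 ± 0.0548 in knockout, overlapped between the groups, and both ratios were chosen after the values were seen. The longest transcripts of Fga, Fgb and Fgg have 2587, 3810 and 1741 bases, so these ratios too keep any trend along transcript length.

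The windows before the RefSeq starts of the 3 fibrinogen genes are shown because all 3 genes were highest in knockouts 3 and 11, the libraries high in acute phase transcripts. That pattern is not particular to them, being found in 24 of the 42 members. C8a, which holds a match named below, is not among the 24. Capitals mark the letters of an interleukin-6 response element core, CTGGGAA, and of the STAT palindrome TTCNNNGAA, each searched on both strands. Here too a match of letters is a description and not a site, and its part in the changes was not tested. The first is in 9.10% of the 32851 promoters and in 5 of the 33 members with an entry (C1ra, F9, Fgb, Fgg and Masp2), and the second in 7.02% and in 6 members (C8a, F9, Fga, Fgb, Masp2 and Pros1). The windows are chr3:83025903-83026075 on the plus strand for Fga, chr3:83049864-83050113 on the minus strand for Fgb and chr3:83007474-83007723 on the plus strand for Fgg (RefSeq, build GRCm38.p6), 5′ to 3′. That of Fga is shown as far as the GENCODE start of the gene, which precedes the RefSeq start. In Fgb the palindrome is 162 to 154 bases before the start and the core 91 to 85, in Fgg the core is 13 to 7 bases before it, and in Fga the palindrome is 234 to 226 bases before the RefSeq start.
Fga: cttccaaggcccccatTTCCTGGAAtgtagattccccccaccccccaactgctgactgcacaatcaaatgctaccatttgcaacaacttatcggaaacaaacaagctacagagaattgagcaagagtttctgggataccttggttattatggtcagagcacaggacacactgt
Fgb: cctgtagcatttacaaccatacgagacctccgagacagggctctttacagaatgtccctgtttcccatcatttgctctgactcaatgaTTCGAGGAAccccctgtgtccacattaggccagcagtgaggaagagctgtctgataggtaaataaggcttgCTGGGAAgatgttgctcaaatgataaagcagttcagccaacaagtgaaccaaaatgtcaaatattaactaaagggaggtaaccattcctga
Fgg: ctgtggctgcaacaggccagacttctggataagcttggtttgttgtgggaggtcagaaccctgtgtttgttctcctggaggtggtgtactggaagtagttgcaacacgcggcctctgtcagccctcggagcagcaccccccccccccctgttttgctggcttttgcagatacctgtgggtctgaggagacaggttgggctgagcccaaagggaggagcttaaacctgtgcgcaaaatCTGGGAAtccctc

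F13b, the carrier chain of factor XIII, which crosslinks fibrin, did not pass. It was at 112.9 ± 19.1 FPKM in wildtype and 103.4 ± 7.64 FPKM in knockout, with overlapping groups (-0.11 ± 0.12, adjusted p = 0.586).

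Of the 4 anticoagulant genes 0 passed in limma (0 at an unadjusted p under 0.05). Serpind1, heparin cofactor II, was at 221.2, 221.9, 236.6 and 245.2 FPKM in wildtype and 359.3, 239.3, 243.7 and 305.5 FPKM in knockout, high in knockouts 3 and 11 and within the wildtype range in the other two (0.29 ± 0.14, adjusted p = 0.185). Proc, protein C, read 314.0, 263.8, 319.9 and 290.1 FPKM in wildtype and 241.4, 262.4, 272.9 and 260.6 FPKM in knockout. Only knockout 10 reached into the wildtype range (-0.19 ± 0.09, adjusted p = 0.207). Pros1, protein S, the cofactor of protein C, was at 14.0 ± 0.81 FPKM in wildtype and 17.3 ± 5.40 FPKM in knockout (0.24 ± 0.18, adjusted p = 0.415). Serpinc1, antithrombin, was at 862.0 ± 20.4 FPKM in wildtype and 836.4 ± 89.2 FPKM in knockout (-0.05 ± 0.10, adjusted p = 0.788), with a 95% interval from -0.28 to 0.18.

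In fibrinolysis, plasmin dissolves fibrin, antiplasmin inhibits plasmin, and the carboxypeptidase of Cpb2 (TAFI) removes plasminogen binding sites from fibrin. Of the 3 genes 0 passed in limma (1 at an unadjusted p under 0.05). Cpb2 (chr14:75242287-75283555) was at 204.5, 231.5, 229.6 and 259.2 FPKM in wildtype and 575.3, 293.5, 270.7 and 492.0 FPKM in knockout. Each knockout library was above the wildtype libraries, knockouts 3 and 11 by far the most. The change was 0.75 ± 0.23 (adjusted p = 0.0619), and 0.29 (adjusted p = 0.161) without those 2 libraries. Cpb2 passed at 7 of the 22 settings, among them quantile normalization and an adjusted p under 0.10. Plg, plasminogen, was at 644.2 ± 47.6 FPKM in wildtype and 790.8 ± 184.7 FPKM in knockout (0.27 ± 0.16, adjusted p = 0.294), and Serpinf2, antiplasmin, was at 341.5 ± 28.0 and 437.1 ± 143.4 FPKM (0.30 ± 0.21, adjusted p = 0.361). Without knockouts 3 and 11 their changes were 0.00 and -0.07.

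Of 57 further genes of complement and coagulation that are not on the list of 43, 35 were tested, and 6 were higher and 1 lower, where 2.70% and 11.7% of all tested genes passed. Among 15 tested complement proteins 4 rose. C4a (sex-limited protein, a copy of C4b) read 40.3, 57.5, 45.5 and 40.7 FPKM in wildtype and 217.3, 110.4, 91.8 and 128.3 FPKM in knockout, without overlap (1.49 ± 0.24, adjusted p = 0.00613; 1.13, adjusted p = 0.0139, without knockouts 3 and 11). C1rb, the copy of C1ra 46851 bases away, rose by 0.49 ± 0.10 (adjusted p = 0.0112), from 23.1 ± 1.83 to 32.8 ± 2.84 FPKM, and was at 0.40 (adjusted p = 0.0599) without knockouts 3 and 11. Reads of C1ra and C1rb may likewise be split between the copies. C1s1, the protease partner of C1r, 6902 bases from C1ra, was at 151.8 ± 12.6 and 166.8 ± 18.7 FPKM (0.13 ± 0.11, adjusted p = 0.450).

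Clu, clusterin, which like vitronectin holds the terminal complex in solution, rose by 0.69 ± 0.16 (adjusted p = 0.0227), from 484.7 ± 22.8 to 802.0 ± 193.0 FPKM, and without knockouts 3 and 11 by 0.40 (adjusted p = 0.0485). Cpn1, the catalytic chain of carboxypeptidase N, which inactivates C3a and C5a, rose by 0.42 ± 0.09 (adjusted p = 0.0160), from 117.8 ± 7.56 to 157.8 ± 11.03 FPKM. For Cpn1 the adjusted p was 0.0569 without wildtype 1 and 0.0646 without knockouts 3 and 11. Among 4 tested receptors and membrane regulators Cd59a, which blocks C9 insertion into the host's own membranes, fell by 0.76 ± 0.19 (adjusted p = 0.0271), from 34.0 ± 8.69 to 19.3 ± 2.47 FPKM. The call was lost without wildtype 1, 3 or 12 or knockout 9 or 10 (adjusted p from 0.0511 to 0.0749), without knockouts 3 and 11 (-0.90, 0.0598) and under the 3 other scalings (from 0.0705 to 0.0753).

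Of 11 tested further coagulation and fibrinolysis genes Habp2, a protease that activates factor VII in vitro, was higher (0.45 ± 0.12, adjusted p = 0.0340; 0.29, adjusted p = 0.0845, without knockouts 3 and 11). Of 5 genes for the carboxylation and secretion of clotting factors Ggcx, the vitamin K-dependent carboxylase, was higher, at 7.71, 8.06, 7.65 and 8.05 FPKM in wildtype and 11.1, 10.5, 9.33 and 9.73 FPKM in knockout. The groups of Ggcx did not overlap and no single library led (0.33 ± 0.08, adjusted p = 0.0296), with 0.30 (adjusted p = 0.1004) without knockouts 3 and 11. The calls of Clu, Habp2 and Ggcx were each lost on leaving out any 1 wildtype library. The same held without knockout 11 for Clu and Habp2 and without knockout 3 for Ggcx. The adjusted p were then 0.0519 to 0.0598 for Clu, 0.0626 to 0.0857 for Habp2 and 0.0567 to 0.0926 for Ggcx. Of the 19 acute phase genes 1 passed, Lrg1 (2.19 ± 0.46, adjusted p = 0.0147), and 13 had an unadjusted p under 0.05. Saa1, at 97.3, 98.9, 78.3 and 195.3 FPKM in wildtype and 28410, 572.9, 265.7 and 33010 FPKM in knockout, did not pass (4.96 ± 1.48, adjusted p = 0.0528). Without knockouts 3 and 11 both passed in limma, Lrg1 at 1.22 (adjusted p = 0.00968) and Saa1 at 1.81 (adjusted p = 0.0408). The median log2 change of the 19 acute phase genes was 1.38, and 0.25 without those libraries.

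Over the 22 settings tried, 24 of the 42 members passed at 1 or more and 18 at none, and 28.9% of all tested genes passed at 1 or more. C8b passed at 21, C1ra and C4bp at 20, Vtn at 19, C3 at 15, C4b at 13, Fga at 11 and Masp1 at 10, each as higher. C8g passed at 19 and Mbl2 at 17, each as lower. No member passed in both directions.

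**Figure D4:**
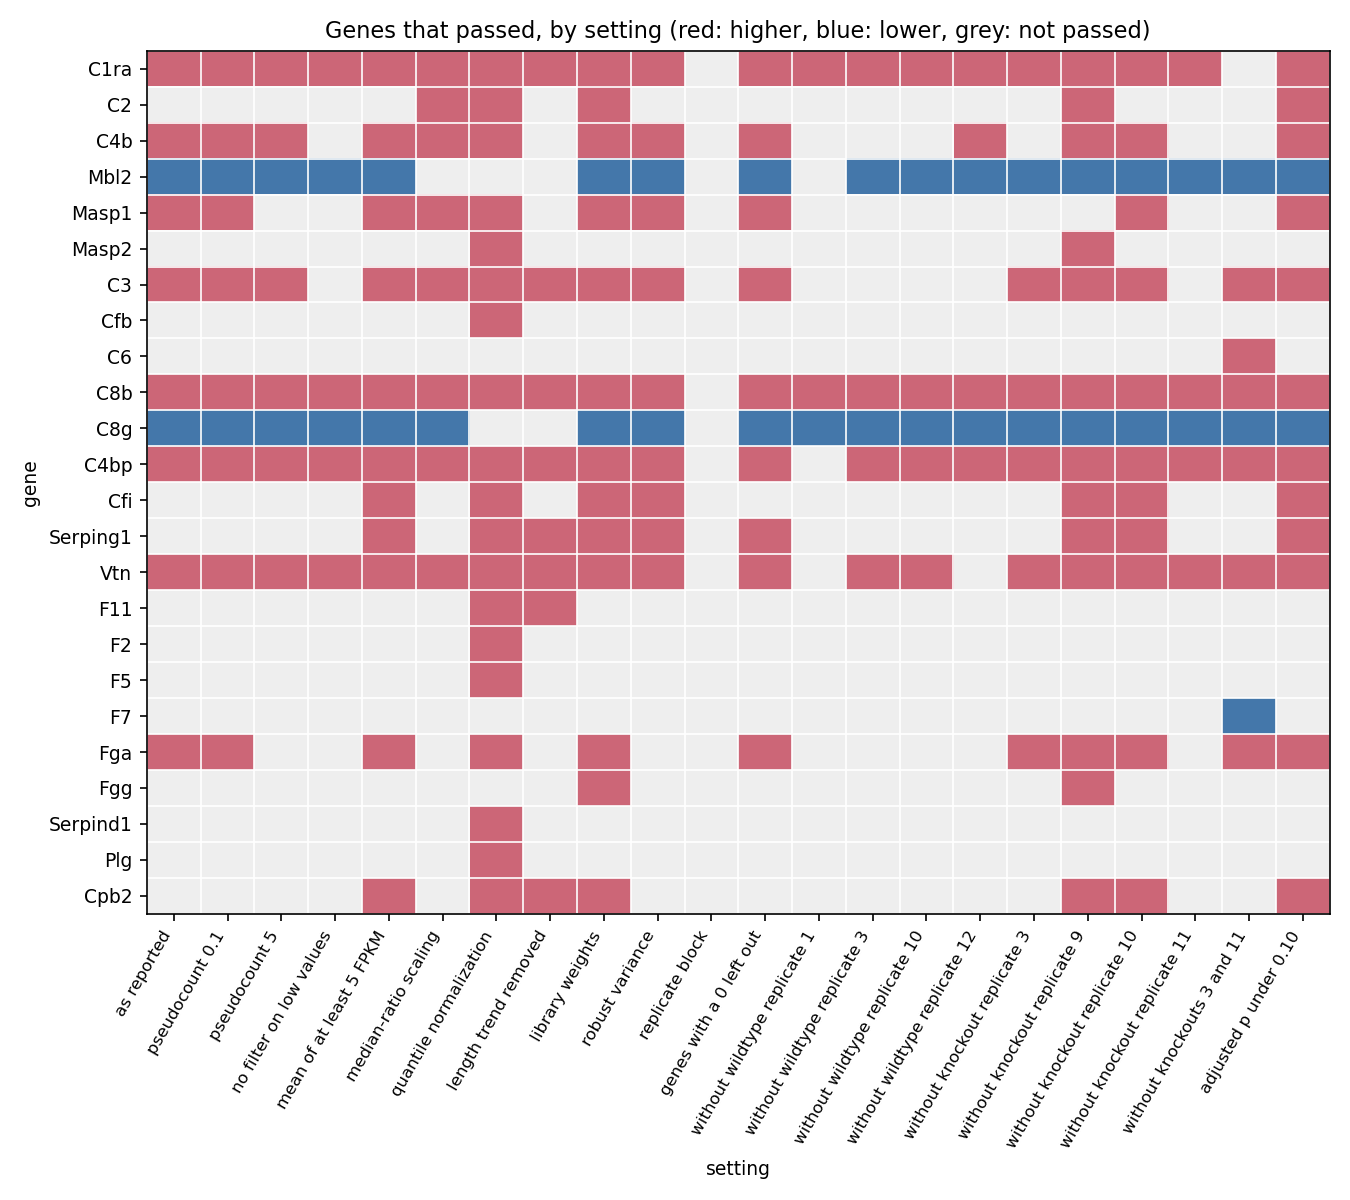
The 24 members that passed at 1 or more of the 22 settings (rows) under each setting (columns): red, higher in knockout; blue, lower; grey, not passed. C8b is red at 21 settings and C8g blue at 19, and quantile normalization gives the most red, 19 genes.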

How the data were processed

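Total RNA of mouse liver was sequenced in 4 wildtype and 4 hepatic Foxo1 knockout libraries. The authors' deposited table gives FPKM per Ensembl gene. The header names no unit, which was inferred from the values and the tools. The submitters' processing notes name TopHat2 2.1.0, HTSeq, Cufflinks 2.2.1 and mm10, with no role or order. For the annotation, the strand setting and what each tool did, nothing is given in the sources used here. No count model was used, since FPKM are normalized values. Depth was estimated from the smallest steps of the FPKM values.

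Symbols, coordinates and lengths came from GENCODE M21 on the same build, and promoter sequences from RefSeq (GRCm38.p6). Libraries were grouped by the genotype label. The 10250 genes that averaged 1 FPKM or more were fitted as log2(FPKM + 1) by limma 3.58.1 (R 4.3.3), with a term for genotype, a variance trend on the mean, two-sided tests and Benjamini-Hochberg adjustment over all tested genes, called under 0.05. A 0 was taken as a value of 0, and no member has one. The fit was tested on simulated data.

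The members, lists and tests were chosen with earlier results of these data known. Named with full values are members that passed, members that passed without knockouts 3 and 11, Foxo1, and the 1 to 3 members of each role group with the smallest unadjusted p; of other lists, genes that passed, Saa1 and up to 3 with the smallest p. The ratios between subunits and the promoters shown were chosen after values were seen. Alternatives were pseudocounts of 0.1 and 5, no filter or a mean of at least 5 FPKM, median-ratio scaling, quantile normalization, a length trend removed by loess, library weights, robust variances, a replicate block, genes with a 0 left out, libraries left out and an adjusted p under 0.10. No set of genes was tested as a set.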

Additional observations from a re-analysis of the deposited data

Results flagged for a closer look

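In 84 groups of 4 libraries (each member in each genotype), the gap between the highest or lowest library and its nearest neighbour was set against the range of the group on the log2(FPKM + 1) scale, with Dixon's 95% critical value for 4 samples as the limit. Chance alone puts about 1 in 20 groups past it, and 3 were. C3 in wildtype 3, at 1131 FPKM, was below the other wildtype libraries, of which the nearest was at 1328 FPKM, and the gap was 0.883 of the range. Cfb in wildtype 12, at 449.4 FPKM, was below the nearest at 560.4 FPKM, a gap of 0.859 of the range. F11 in knockout 3, at 73.75 FPKM, was above the nearest at 65.15 FPKM, a gap of 0.901 of the range. Without wildtype 3 the change of C3 was 0.76 (adjusted p = 0.0638, limma).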

How the results depend on the processing

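The number of members higher in knockout (8) was 4 with no filter on low values, 19 with quantile normalization, 13 with library weights and 0 with the replicate block, and ran from 2 to 13 on leaving out 1 library. The number lower (2) was 1 with median-ratio scaling, 0 with quantile normalization, with the length trend removed and with the block, and ran from 1 to 2. For the other complement and coagulation genes, the number higher (6) was 10 with quantile normalization, 0 with the block and 2 without knockouts 3 and 11, and ran from 2 to 9. The number lower (1) was 0 with no filter, median-ratio scaling, quantile normalization, the length trend removed, the block and without knockouts 3 and 11, 2 with library weights or at an adjusted p under 0.10, and ran from 0 to 4. At an unadjusted p under 0.05 (limma), the block gave 3 higher and 0 lower members and 6 and 0 of the other genes. Where 1 library or 2 are left out, fewer libraries are compared. For the other settings the cause was not tested. No share over all tested genes was computed for no filter, library weights, the block or an adjusted p under 0.10. Nor was a share of lower genes computed for leaving out 1 library, so these counts have nothing to be set against.

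Wildtype and knockout share only the numbers 3 and 10, the labels do not say that these pair the libraries, and the deviations of same-numbered libraries correlated at -0.01 and 0.02. The replicate block leaves 1 residual degree of freedom. Foxo1, the targeted gene, did not pass with it either (-1.69, adjusted p = 0.175, limma), so the counts of 0 with the block are no result about the members.

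No member that passed changed sign at any setting. Among those that did not pass, quantile normalization turned the log2 change to 0.00 for C1qa, 0.08 for C1qc, 0.19 for Mbl1, 0.21 for Hc, 0.07 for F12, 0.09 for F7, 0.11 for F13b, 0.03 for Proc and 0.25 for Serpinc1. Removing the length trend turned it to 0.17 for C1qa, 0.25 for C1qc, 0.12 for Mbl1, 0.10 for Cfp and 0.05 for F7. Median-ratio scaling gave 0.10 for C1qc, 0.05 for Mbl1, 0.02 for Cfp, 0.05 for Hc, 0.02 for F7 and 0.06 for Serpinc1. Without knockouts 3 and 11 it was 0.03 for C1qa, 0.17 for C1qc, 0.19 for Cfp, -0.10 for Kng1, -0.04 for F10, -0.09 for Pros1 and -0.07 for Serpinf2. Leaving out 1 library gave -0.08 to 0.09 for C1qc, -0.14 to 0.01 for Mbl1, -0.24 to 0.05 for Cfp, -0.18 to 0.04 for Hc, -0.22 to 0.03 for F7 and -0.10 to 0.02 for Serpinc1.

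With 4 libraries a group, 18 members passed at no setting, which does not show that they did not change. The counts behind the FPKM were not used, so the counting error of the low genes (Cfp, Masp1 and the C1q chains) is unknown.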
